A study of Mus musculus with 30 samples.

Results

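The mitochondrial ribosomal protein genes were taken as the protein-coding genes of the table whose mouse symbol is Mrpl or Mrps followed by a number and at most 1 letter. This rule found 78 of 19737 genes, 49 named for the large subunit (Mrpl) and 29 named for the small subunit (Mrps), and these are all 78 protein-coding genes of the mouse annotation that fit the pattern. The pseudogene Mrpl23-ps1 was also in the table and was not taken. All 78 had a value above 0 in each of the 30 libraries, and all 78 passed the filter on low values in every comparison. By the structure of the assembled ribosome, the products of Mrps18a and Mrps30 lie in the large subunit, although their names say small.

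The mitochondrial ribosome translates the few proteins that mitochondrial DNA encodes, all of them subunits of the oxidative phosphorylation complexes. Its RNAs come from mitochondrial DNA, whereas all of its proteins are encoded in the nucleus, made in the cytosol and imported. Neurons draw heavily on oxidative phosphorylation, and inherited defects of several of these proteins, among them MRPL3, MRPL12, MRPL44, MRPS7, MRPS22 and MRPS34, cause mitochondrial disease in people.

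The libraries were poly-A RNA sequencing of whole brains of male C57BL/6N mice, 1 mouse per library and 5 per group. ARID1B is a subunit of BAF chromatin remodelling complexes, and HT mice carry 1 Arid1b allele with a CRISPR/Cas9 deletion of exon 5 (Arid1b+/-) in every cell, while WT mice are their wild-type counterparts. Brains were taken from untreated HT and WT mice at postnatal day 10 (P10) and from 4 groups at P120. At P120, HT-Flx and WT-Flx mice had been reached through the milk of dams whose drinking water (0.2% saccharin) held the serotonin reuptake inhibitor fluoxetine at 0.1 mg/ml from P3 to P21, and HT-Veh and WT-Veh mice had dams on saccharin water alone. The mice were therefore off the drug for the rest of their life up to P120, and the P10 pups had received neither drug nor saccharin, so that age cannot be told apart from the vehicle in a comparison of P120 with P10. Each test sets a group difference against the spread between mice. Dams, litters and library dates were not given in the sources used here. The drug was given to dams, so its effect cannot be told apart from that of dam or litter. Mice of 1 litter would not be independent.

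Values are read counts divided by a size factor per library, and the depth behind them is unknown. Each library's values summed to 31578614 to 35542279 in 23 libraries, to 37083545 to 41522113 in the 5 HT-Flx libraries, and to 37586145 and 41801037 in HT-Veh replicates 1 and 3. Arid1b lay at 2162 to 2334 in P10 HT against 3164 to 3309 in P10 WT. At P120 the library labelled HT-Veh 2 held 3361, within the range of WT mice, and the library labelled WT-Veh 2 held 2320, within that of HT mice. Both were left out of HT-Veh against WT-Veh and kept elsewhere as labelled. Neuronal, oligodendrocyte and astrocyte markers were present in every library, and the 7 neuronal markers summed to between 134100 and 220200 per library.

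Promoters of these genes are known to hold sites for NRF1, ETS-family factors such as GABP (also called NRF2) and YY1. RefSeq promoters, from 250 bases before to 50 after a start site on GRCm38.p6, were found for 69 of the 78 genes (75 promoters), and were not found for Mrpl4, Mrpl13, Mrpl15, Mrpl19, Mrpl38, Mrpl54, Mrps28, Mrps34 and Mrps35. Short words were searched on both strands, GCATGCGC for NRF1, CCGGAAG for ETS factors and AAGATGGC for YY1, which do not contain one another. The promoters of Mrps11 and Mrps12, which rose from P10 to P120, and of Mrpl52 and Mrps18b, which fell in WT mice, are shown so that genes moving in opposite directions can be compared. Capitals mark each match on either strand.
Mrps11, chr7:78782881-78783180, plus strand: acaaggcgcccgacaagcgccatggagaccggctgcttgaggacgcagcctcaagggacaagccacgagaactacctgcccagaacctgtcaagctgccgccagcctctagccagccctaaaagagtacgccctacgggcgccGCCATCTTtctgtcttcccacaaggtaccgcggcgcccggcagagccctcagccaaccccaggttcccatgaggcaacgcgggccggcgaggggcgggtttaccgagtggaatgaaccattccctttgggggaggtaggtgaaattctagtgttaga
Mrps12, chr7:28741772-28742071, minus strand: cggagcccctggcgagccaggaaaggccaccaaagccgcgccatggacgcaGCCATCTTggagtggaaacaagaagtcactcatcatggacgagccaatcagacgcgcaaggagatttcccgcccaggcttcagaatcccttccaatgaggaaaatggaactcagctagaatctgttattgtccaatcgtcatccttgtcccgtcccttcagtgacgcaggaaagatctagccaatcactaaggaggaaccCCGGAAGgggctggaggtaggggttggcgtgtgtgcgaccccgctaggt
Mrpl52, chr14:54426659-54426958, plus strand: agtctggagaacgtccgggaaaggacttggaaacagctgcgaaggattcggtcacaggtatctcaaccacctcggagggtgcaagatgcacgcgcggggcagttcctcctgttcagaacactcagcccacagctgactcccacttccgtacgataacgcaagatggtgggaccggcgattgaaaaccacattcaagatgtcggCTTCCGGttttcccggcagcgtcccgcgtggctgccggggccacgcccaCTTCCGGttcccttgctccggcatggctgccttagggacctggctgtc
Mrps18b, chr17:35916391-35916690, minus strand: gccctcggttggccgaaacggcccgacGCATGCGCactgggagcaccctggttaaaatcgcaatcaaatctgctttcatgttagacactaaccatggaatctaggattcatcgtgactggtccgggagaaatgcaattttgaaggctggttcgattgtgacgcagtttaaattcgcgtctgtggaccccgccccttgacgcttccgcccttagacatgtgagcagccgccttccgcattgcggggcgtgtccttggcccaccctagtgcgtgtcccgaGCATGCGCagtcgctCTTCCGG

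The printed promoters of the rising Mrps11 and Mrps12 each hold 1 YY1 word, and that of Mrps12 also holds 1 ETS word. The promoter of Mrpl52 holds 2 ETS words, and that of Mrps18b holds 2 NRF1 words and 1 ETS word. Over all the genes, the ETS word was in 26 of 75 promoters (34.7%) against 2409 of 17035 promoters of the whole table (14.1%). The YY1 word was in 12 of 75 (16%) against 613 (3.6%), and the NRF1 word in 8 of 75 (10.7%) against 733 (4.3%). The ETS and YY1 words were in 31.2% and 12.5% of the 48 large subunit promoters and in 40.7% and 22.2% of the 27 small subunit promoters. The NRF1 word was in 14.6% of the large subunit promoters and 3.7% of the small. These matches describe the letters of the windows, were not counted by direction of change and were not tested. The 4 printed promoters are examples and do not stand for the other genes that rose or fell.

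Levels per kilobase of transcript spanned a wide range within each subunit. Over the 30 libraries the highest large subunit genes were Mrpl30 (mean 1478 per kilobase), Mrpl20 (1474) and Mrpl12 (1431), a stalk protein, and the lowest were Mrpl1 (105), Mrpl47 (107) and Mrpl17 (131). In the small subunit the highest were Mrps21 (1687), Mrps17 (1419) and Mrps34 (1293), and the lowest were Mrps35 (147), Mrps16 (182) and Mrps30 (202). These orders depend on the transcript length used, and with the longest annotated transcript Mrpl30 ranked 10th of its subunit and Mrps17 25th. Neighbours in these orders were not tested against each other.

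The spread between mice depended on the group. The coefficient of variation of a gene had a median of 4.38% over large and 4.66% over small subunit genes in P10 WT, 7.68% and 7.08% in P10 HT, and 6.82% and 7.16% in WT-Flx. It was 12.3% and 10.7% in WT-Veh, 14.9% and 12.8% in HT-Flx, and 22.3% and 18% in HT-Veh. The genes thus varied most between mice in HT-Veh and least in P10 WT, in both subunits. The mean log2 value over the 78 genes was 9.51 ± 0.01 (SD, n = 5) in P10 WT and 9.43 ± 0.04 in P10 HT. At P120 it was 9.50 ± 0.08 in WT-Veh, 9.45 ± 0.05 in WT-Flx, 9.62 ± 0.21 in HT-Veh and 9.73 ± 0.14 in HT-Flx. HT-Flx libraries ran from 9.58 to 9.94 and lay above all WT-Flx libraries, which ran from 9.39 to 9.53. HT-Veh ran from 9.45 to 9.94, and its highest libraries were replicates 3 and 1, the same libraries whose values summed to more.

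**Figure D1:**
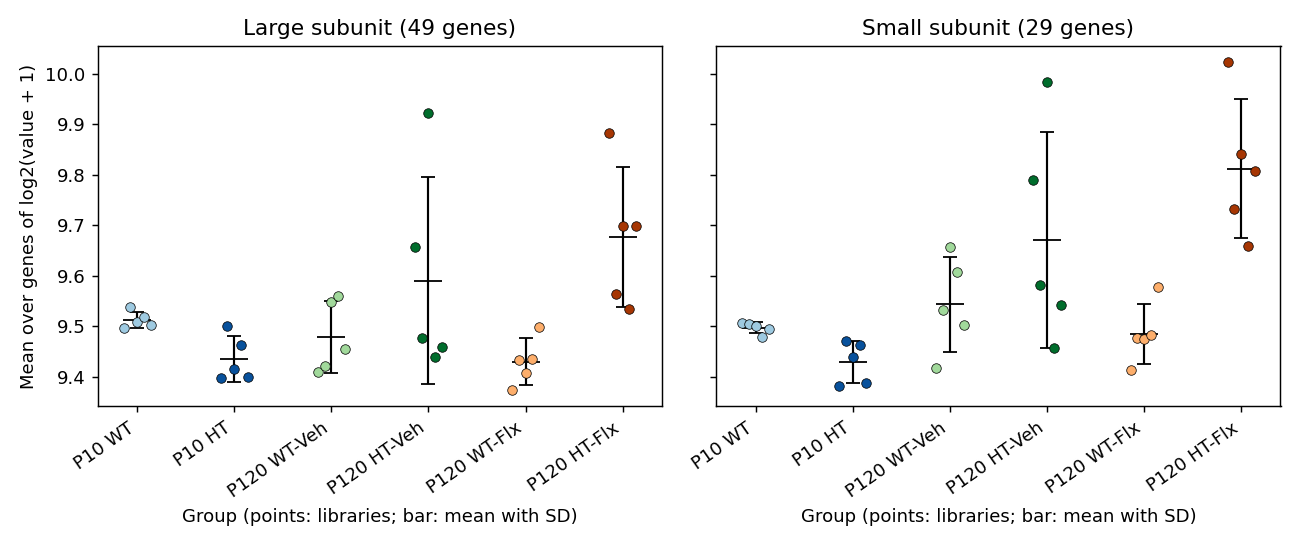
Mean log2(value + 1) of the large subunit and small subunit genes in each of the 30 libraries, by group, with the group mean and SD. The 5 HT-Flx libraries, between 9.58 and 9.94 over all 78 genes, lie above the 5 WT-Flx libraries, between 9.39 and 9.53.

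The first comparison asked how the genes change as the WT brain matures. From P10 to P120 in WT mice the genes diverged, with 16 higher (9 large, 7 small) and 19 lower (12 large, 7 small) in limma at an adjusted p under 0.05. Among all 17927 genes tested 28.9% were higher and 29.4% lower, and the median log2 difference was −0.01 over the 78 genes and −0.01 over all genes. Large and small subunit genes thus appeared on both sides, and no direction held for a subunit. The split depended on scaling, since 12 were higher and 31 lower when all libraries were set to equal summed values, with a median of −0.12. Of all genes 23.4% were then higher and 36.2% lower. Without the library labelled WT-Veh 2, 16 were higher and 14 lower, against 27.9% and 28.2% of all genes.

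Mrpl2, a large subunit protein at the core of the subunit, gained most in WT mice. It had 528, 528, 570.2, 604 and 581 in P10 WT and 926, 929, 1219, 1066 and 1017 in WT-Veh. Each P120 library lay above every P10 library, and the log2 difference was 0.87 ± 0.09 (SE; limma adjusted p = 2.59e-06; exact permutation p = 0.00794, the smallest that 5 against 5 can give). Mrpl44, which has an RNase III-like fold, had 472, 445, 416, 470.3 and 507 at P10 and 551, 721, 725, 847 and 667 at P120, a log2 difference of 0.59 ± 0.11 (limma adjusted p = 0.000383). Mrpl48 rose by 0.52 ± 0.09 on the same scale (limma adjusted p = 0.000194).

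Among small subunit genes Mrps11, Mrps14 and Mrps12 rose most with groups apart. Mrps14 had 582, 568, 509, 426 and 536 in P10 WT and 680.5, 714, 712, 784 and 874 in WT-Veh, so the groups did not overlap (0.52 ± 0.10, limma adjusted p = 0.000606). Mrps12, a protein of the decoding centre, had 759, 763, 769, 729 and 769 at P10 and 859.6, 1058, 1193, 1101 and 905 at P120 (0.42 ± 0.09, limma adjusted p = 0.00133). Mrps11 rose by 0.64 ± 0.10 (limma adjusted p = 0.00013). Exons of Mrps11 overlap those of Mrpl46 on the other strand by 173 bases and exons of Mrpl44 overlap those of Wdfy1 by 126 bases. The library kit does not mark strand, so reads there cannot be assigned with certainty.

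Mrpl52 fell most in WT mice. It had 551, 569, 553, 573 and 542 in P10 WT and 356, 325, 344, 375 and 352 in WT-Veh, a log2 difference of −0.67 ± 0.07 (limma adjusted p = 4.28e-06; exact permutation p = 0.00794). All P120 libraries lay below all P10 libraries. Mrpl50 fell by 0.58 and Mrpl34 by 0.51, as did Mrpl33. With a correction for GC content and length the calls of Mrpl50 (−0.19, limma adjusted p = 0.0514) and Mrps36 (−0.17, limma adjusted p = 0.0529) were lost. In the small subunit the largest decreases were in Mrps18b (−0.43 ± 0.09, limma adjusted p = 0.00166), Mrps36 (−0.30 ± 0.08, limma adjusted p = 0.00476) and Mrps7 (−0.29 ± 0.08, limma adjusted p = 0.00739). Mrps18b had 530, 653, 558, 601 and 583 in P10 WT and 399, 490.5, 492, 395 and 399.7 in WT-Veh, again without overlap. MRPS36 is also known as KGD4, an adaptor of the oxoglutarate dehydrogenase complex, and its place in the ribosome is not generally accepted. An antisense gene, Gm16279, overlaps exons of Mrps18b by 638 bases.

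**Figure D2:**
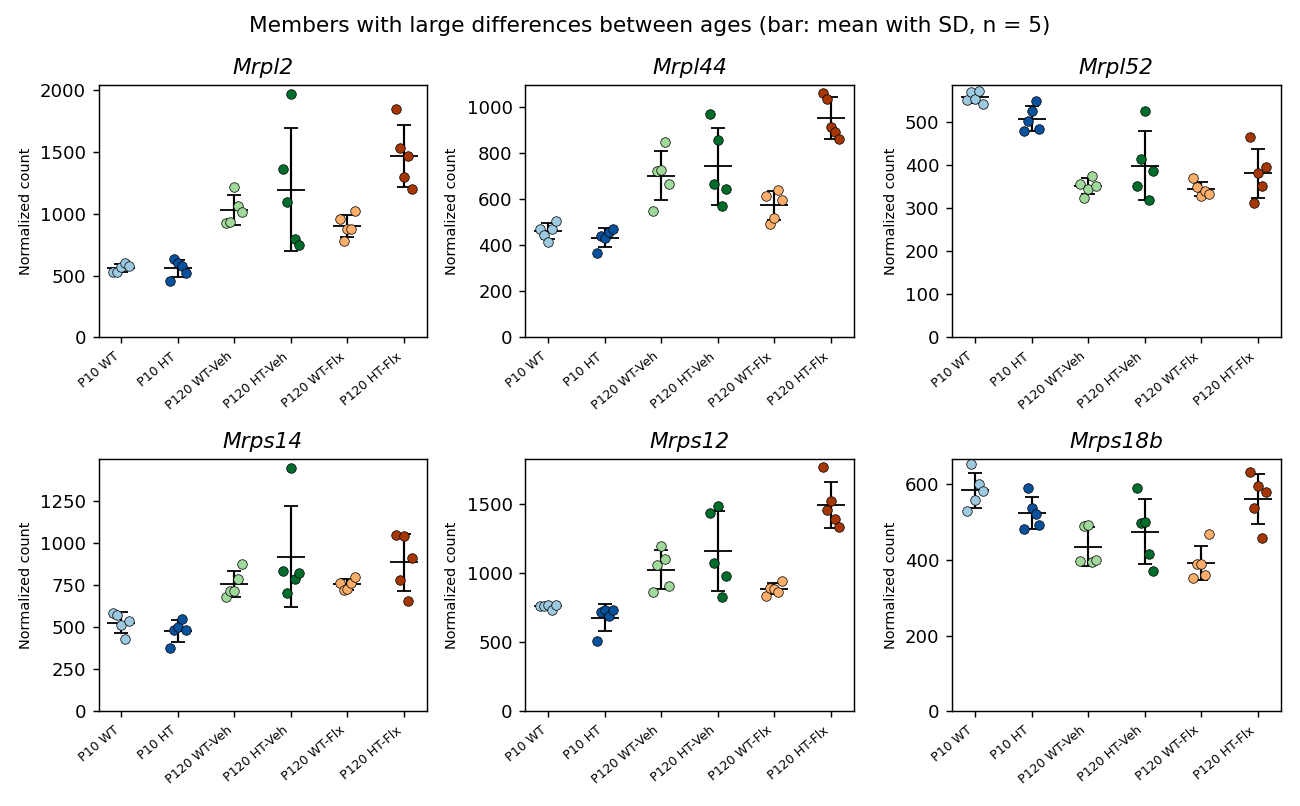
Normalized counts in each library, on a linear axis from 0 with group means and SDs as bars, of Mrpl2, Mrpl44, Mrpl52, Mrps14, Mrps12 and Mrps18b in the 6 groups. Mrpl2 lay between 528 and 604 in P10 WT and between 926 and 1219 in WT-Veh, whereas Mrpl52 fell from 542 to 573 to between 325 and 375.

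The same comparison in HT mice gave 22 genes higher (12 large, 10 small) and 2 lower, Mrpl50 (−0.63) and Mrpl52 (−0.37). The call of Mrpl50 was lost with a correction for GC content and length (−0.16, limma adjusted p = 0.171). Among all 17989 genes 25.8% were higher and 25.3% lower, and the median was 0.15 over the 78 genes and −0.02 over all. With equal summed values the split was 13 higher and 9 lower with a median of −0.01, against 19.4% and 32.7% of all genes. With the GC and length correction it was 22 higher and 9 lower, against 29.5% and 26.6%. Without the library labelled HT-Veh 2 it was 18 higher and 1 lower, against 22.9% and 22.7%. Mrpl2 rose by 1.01 ± 0.23 in HT mice, Mrpl14 by 0.81, Mrpl44 by 0.75, Mrps14 by 0.90, Mrps11 by 0.86 and Mrps12 by 0.75. Mrps14 had 374, 480.3, 500.2, 547 and 483 in P10 HT and 832, 703, 1445, 783 and 823 in HT-Veh, with the highest value in replicate 3.

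The age comparisons in WT and HT mice share no libraries. Of all genes 28.9% were higher and 29.4% lower in WT, and 25.8% and 25.3% in HT. The overlap and correlation given next were not computed over all genes, so they cannot be read as particular to the members. All 16 genes higher in WT were higher in HT (100% of the WT list, 72.7% of the HT list), both genes lower in HT were lower in WT (100% of the HT list, 10.5% of the WT list), and 0 went in opposite directions. Of the 17 lower only in WT, 12 had a negative difference in HT too. Across the 78 genes the log2 differences correlated with r = 0.898 and a rank correlation of 0.882, as a description over genes, which share libraries. The difference itself was tested as a genotype by age interaction in limma, with 0 genes called among the 78 and 0% of all 17978 genes. At an unadjusted p under 0.05 there were 4 higher and 0 lower, against 1.81% and 1.6% of all genes. The median difference was 0.19 against 0.02 over all genes, with 72 of 78 fitted higher in HT, and it was 0.05 without HT-Veh replicates 1 and 3. Mrpl17 (0.44, limma adjusted p = 0.877) and Mrpl54 (0.43) had the smallest p-values.

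At P10 the comparison of HT with WT asked what Arid1b heterozygosity does in the juvenile brain. No member passed the adjusted threshold, as did 0.0224% of all 17896 genes (4 genes). At an unadjusted p under 0.05, 0 members were higher (5.73% of all genes) and 19 were lower (12 large, 7 small), against 6.84% of all genes. In all, 62 of 78 were fitted lower, and the median log2 difference was −0.09 against −0.01 over all genes. The Spearman correlation of the log2 difference with GC content was −0.369 across the 78 genes and −0.267 across all genes. With transcript length it was 0.314 and 0.117. HT and WT libraries did not overlap for 8 genes, all lower in HT, namely Mrpl17, Mrpl34, Mrpl36, Mrpl45, Mrpl49, Mrps17, Mrps21 and Mrps25, where 1.69% of all genes were lower without overlap and 1.43% higher.

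Mrps21 held 580, 599, 562, 529 and 591 in P10 HT and 671, 632, 668, 658 and 697 in P10 WT. The highest HT library lay below the lowest WT library, with a log2 difference of −0.22 ± 0.05 (limma adjusted p = 0.247; exact permutation p = 0.00794). Mrpl34 ran from 509 to 589.6 in HT and from 595 to 665 in WT (−0.22, limma adjusted p = 0.258). Some other measures also moved in the same libraries. Red cell markers were lower in HT at an unadjusted p under 0.05 for 5 of 5 genes, with summed values of 5258 to 8444 in HT and 10380 to 13110 in WT. The oligodendrocyte list had a median of −0.26 with 6 of 6 fitted lower, and its summed values of 94080 to 179100 in HT overlapped those of 126600 to 245800 in WT. The proliferation list had a median of −0.26 with 4 of 4 fitted lower, with summed values of 1936 to 2836 and 2222 to 3407. Choroid plexus markers were fitted lower in 4 of 4, 3 of them at an unadjusted p under 0.05, with a median of −0.34 and summed values of 7039 to 12110 in HT and 11330 to 15520 in WT. Endothelial markers were fitted lower in 4 of 4, 3 of them at that threshold, with a median of −0.15 and summed values of 4343 to 5238 and 5318 to 5721. Neuronal, astrocyte and microglial markers had medians of 0.004, −0.0136 and 0.0145, with 4 of 7, 2 of 5 and 3 of 5 fitted higher. Nuclear oxidative phosphorylation subunits were fitted lower in 69 of 80 cases, with a median of −0.08. Cytosolic ribosomal proteins were fitted lower in 65 of 77, with a median of −0.07. Proteins encoded in mitochondrial DNA were fitted higher in 12 of 13, with a median of 0.11. The part of these lists in the members' lower values was not tested. In bulk tissue, fewer cells of a type cannot be told apart from less RNA per cell.

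At P120 the vehicle mice were compared in 4 HT and 4 WT libraries. In limma 0 members were called and 0% of all 17784 genes, and 0 members had an unadjusted p under 0.05 in either direction, against 0.765% of all genes higher and 0.523% lower. The members were fitted higher in 70 of 78 cases with a median of 0.14 against 0.01 over all genes. Without HT-Veh replicates 1 and 3 the median was −0.04, and with all 5 and 5 libraries it was 0.11, again with 0 calls. Mrpl33 was the only member whose groups did not overlap, at 515, 975, 471 and 471 in HT-Veh against 409.5, 425, 422 and 389.9 in WT-Veh (0.49 ± 0.23, limma adjusted p = 1.0; exact permutation p = 0.0286, the smallest that 4 against 4 can give). Its highest value came from HT-Veh replicate 3, and 0.534% of all genes were higher and 0.506% lower without overlap, so 1 of 78 is near the background. Mrpl30 differed by 0.33 and its value in the same replicate was 1676, against 930.8 to 1128 in the other 3 HT-Veh libraries. The 13 proteins encoded in mitochondrial DNA, whose RNA the mitochondrial ribosome reads, were all fitted higher with a median of 0.45. Of the 13, 2 had an unadjusted p under 0.05. Their mean log2 value was 16.79 in HT-Veh replicate 3, 15.69 to 15.73 in the other HT-Veh libraries compared, and 15.19 to 15.81 in WT-Veh. Nuclear oxidative phosphorylation subunits were fitted higher in 76 of 81 cases and cytosolic ribosomal proteins in 75 of 77, with medians of 0.18 and 0.20. A link between these lists and the members was not tested.

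The effect of fluoxetine was read within each genotype. In HT mice 0 members were called between HT-Flx and HT-Veh, and 0% of all 17676 genes. At an unadjusted p under 0.05, 9 were higher and 3 lower, against 11.2% and 11.9% of all genes, with a median of 0.12 against 0.02. The log2 differences followed GC content, with a Spearman correlation of 0.578 across the 78 genes and 0.74 across all genes. Mrpl34 held 800.3, 630.04, 628, 547 and 588 in HT-Flx and 601, 434, 569, 352 and 426 in HT-Veh, so the groups overlapped (0.44 ± 0.17, limma adjusted p = 0.215). Mrps23 ran from 1227 to 1589.5 in HT-Flx and from 875 to 1377 in HT-Veh (0.38 ± 0.15, limma adjusted p = 0.215). Without HT-Veh replicates 1 and 3, 27 members were called (24 higher, 3 lower) among 38.9% of all genes.

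In WT mice 0 members were called between WT-Flx and WT-Veh, and 0% of all 17865 genes. At an unadjusted p under 0.05, 1 was higher and 14 lower, against 10.3% and 14.9%, and the median was −0.03 against −0.00 over all genes. Here the Spearman correlation with GC content was negative, at −0.533 across the 78 genes and −0.671 across all genes. Mrps6 held 519, 482, 534, 548 and 520.4 in WT-Flx and 506, 671, 772, 660.4 and 597 in WT-Veh (−0.29 ± 0.11, limma adjusted p = 0.138). Only WT-Veh replicate 1 lay within the WT-Flx range, and without it Mrps6 (−0.37) and Mrpl4 (−0.31) were called lower in limma, with adjusted p = 0.0405 and 0.0454, in a fit that called 7.84% of all genes. Mrpl28 differed by −0.27 ± 0.10 (limma adjusted p = 0.142).

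Most members differed between fluoxetine-treated HT and WT mice. In limma 43 members were higher in HT-Flx (26 large, 17 small) and 6 lower, Mrpl1, Mrpl9, Mrpl24, Mrpl50, Mrps9 and Mrps22. Of all 17799 genes 33.1% were higher and 30.5% lower, and the median was 0.30 over the 78 genes and 0.02 over all. Members were called about as often as genes in general (62.8% against 63.7%). Groups did not overlap for 33 members higher and 5 lower, against 25.6% and 22.9% of all genes. Of the members named for the large subunit 26 of 49 rose, and of those named for the small subunit 17 of 29 rose. Sorted by structure, 32 of 51 large subunit genes were called (28 higher) and 16 of 26 small subunit genes (14 higher), with Mrps36 set aside.

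Mrpl12, which joins Mrpl10 in the stalk that recruits translation factors, held 3465, 2786, 2654, 2451 and 2165 in HT-Flx, against 1447, 1369.6, 1399, 1516 and 1608 in WT-Flx. Each HT-Flx library lay above every WT-Flx library (0.87 ± 0.11, limma adjusted p = 6e-05). Mrpl10 rose by 0.37 ± 0.07 (limma adjusted p = 0.000933), while Mrpl11 differed by 0.27 ± 0.12 and missed the threshold (limma adjusted p = 0.0707). Mrpl14 rose by 0.87 ± 0.12 and Mrpl28 by 0.82 ± 0.11. In the small subunit Mrps11 rose by 0.82 ± 0.13, Mrps6 by 0.78 ± 0.09 and Mrps12 by 0.75 ± 0.09. Mrps6 held 1029.8, 974, 797, 829 and 852 in HT-Flx, against at most 548 in WT-Flx. Exons of Mrps6 share 159 bases with Slc5a3 on the same strand and those of Mrpl14 share 106 bases with Tmem63b.

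Mrpl50 went the other way, at 320.5, 447, 289.6, 508 and 445 in HT-Flx, against 662, 856, 739, 794 and 861 in WT-Flx (−0.985 ± 0.15, limma adjusted p = 0.000163). Its groups did not overlap. Mrpl1 fell by 0.65, from 375 to 465 in WT-Flx to between 207 and 341 in HT-Flx. Mrpl9 differed by −0.34 and Mrps9 by −0.40, and Mrps22 by −0.45 ± 0.13 with overlapping groups (limma adjusted p = 0.0079). Members with other known roles included Mrpl58, a peptidyl-tRNA hydrolase (0.38 ± 0.12), Mrps27, a pentatricopeptide repeat protein (0.34 ± 0.10), Mrps34 (0.66 ± 0.09), Mrps7 (0.30 ± 0.08), Mrps30 (0.30 ± 0.08), Mrps18a (0.68 ± 0.11), Mrps18b (0.52 ± 0.11), Mrps18c (0.49 ± 0.13) and Mrps36 (0.65 ± 0.10), all called higher. Mrpl3 (0.08 ± 0.09), Mrpl32 (0.29 ± 0.13), whose protein is matured by the m-AAA protease, and Mrpl45 (−0.06 ± 0.08), which faces the inner membrane, did not pass the test.

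Cell type markers were read in the same libraries, where 33.1% of all genes were called higher and 30.5% lower. The marker lists are short and were not tested against that share. Red cell markers were called higher in HT-Flx in 3 of 5 and lower in 0, with a median of 0.74 and summed values of 8751 to 14350 in HT-Flx, against 6304 to 8904 in WT-Flx. Proliferation markers were called lower in 2 of 4 with a median of −0.95, and their summed values were 57.8 to 80.6, against 115.5 to 172.6. Oligodendrocyte markers were called higher in 3 of 6 and lower in 1, astrocyte markers higher in 2 of 5 and lower in 3, neuronal markers higher in 3 of 7 and lower in 3, and microglial markers higher in 2 of 5 and lower in 1. Endothelial and choroid plexus markers were each called higher in 1 of 4 and lower in 0. The part of these differences in the members' values was not tested.

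**Figure D3:**
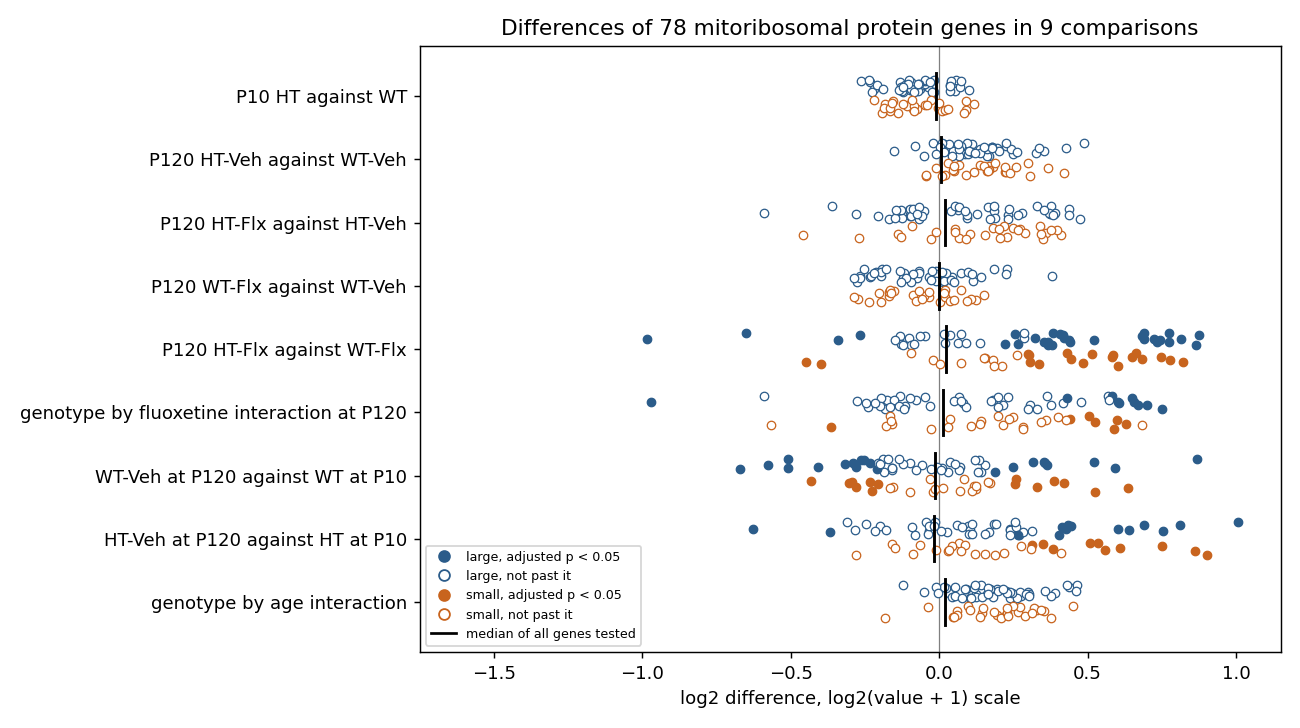
Log2 difference of each of the 78 genes in the 9 fits, coloured by subunit and filled where the adjusted p was under 0.05, with the median of all genes tested as a black line. In HT-Flx against WT-Flx the genes run from −0.99 (Mrpl50) to 0.87 (Mrpl14 and Mrpl12).

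These differences followed base composition across genes. The Spearman correlation between the log2 difference and GC content was 0.533 across the 78 genes and 0.772 across all genes, and with transcript length it was −0.322 and −0.172. Members higher in HT-Flx had a median GC content of 53.2% (n = 43), those lower 47.3% (n = 6) and those not called 48.2% (n = 29). GC content was 41.5% to 60.4% in large and 39.6% to 60.6% in small subunit genes. After a correction for GC content and length, 47 members were higher and 5 lower among 36.4% of all genes called, with a median of 0.32. All genes were then higher in 20.7% and lower in 15.6% of cases. Mrpl1 turned to 0.37 and Mrps7 to −0.12 under the correction, and the calls of Mrpl50 (−0.30, limma adjusted p = 0.0581), Mrpl10 (0.083) and Mrps22 (−0.10) were lost, while Mrpl44 (0.62), Mrps6 (0.64) and Mrpl12 (0.37) kept their direction. With equal summed values 20 members were higher and 14 lower, with a median of 0.05 against −0.23 over all genes, so that this scaling lowered both medians. Of all genes 21.2% were then higher and 41.1% lower, and 43.6% of members were called against 62.3% of all genes. Under it the calls of Mrpl10 (0.12), Mrpl58 (0.13), Mrps7 (0.053), Mrps18b (0.27), Mrps18c (0.24), Mrps27 (0.087) and Mrps30 (0.051) were lost. The members took 0.167% to 0.214% of the summed values in HT-Flx, against 0.176% to 0.191% in WT-Flx, and these ranges overlap.

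**Figure D4:**
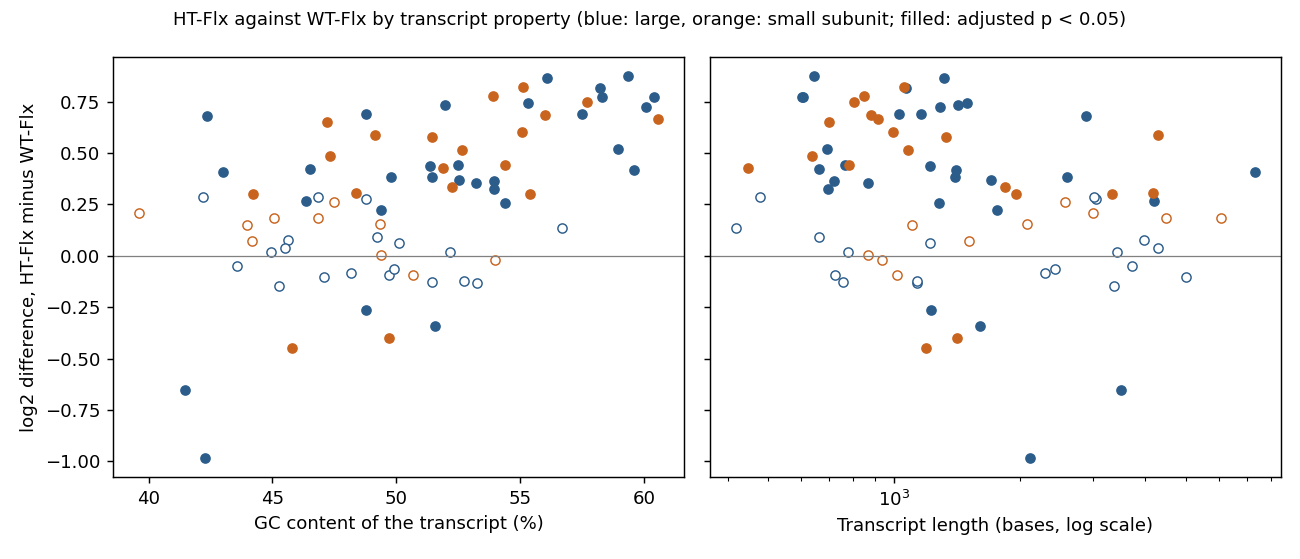
Log2 difference between HT-Flx and WT-Flx of the 78 genes against the GC content (left) and the length of their transcripts on a log axis (right), coloured by subunit and filled where called in limma. The difference rises with GC content (Spearman correlation 0.533) and falls with length (−0.322) across the genes.

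**Figure D5:**
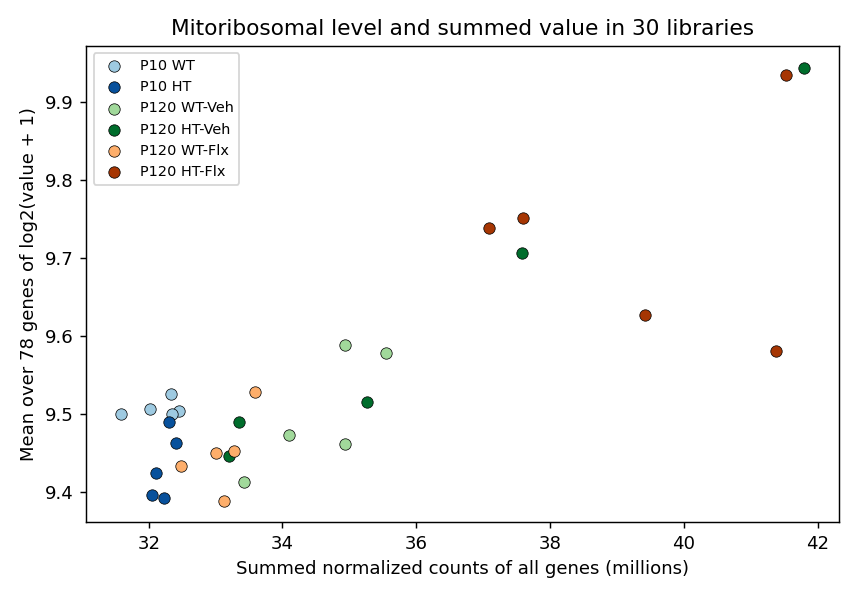
Mean log2 value of the 78 genes in each library against the summed normalized counts of all genes, coloured by group. The HT-Flx libraries and HT-Veh replicates 1 and 3 have the larger sums, from 37083545 to 41801037, and the other 23 libraries lie between 31578614 and 35542279.

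Whether the effect of fluoxetine differed with genotype was tested as an interaction over the 20 libraries of P120. The interaction term was positive for 15 members (9 large, 6 small) and negative for 2, Mrpl50 (−0.97 ± 0.30, limma adjusted p = 0.0347) and Mrps9 (−0.36). A positive term means a more positive signed fluoxetine difference in HT than in WT mice, and can include a decrease in WT mice. Among all 17796 genes 15.8% were positive and 11.5% negative, so 21.8% of members were called against 27.3% of all genes, and the median was 0.19 against 0.01. The largest positive terms were those of Mrpl12 (0.75 ± 0.25, limma adjusted p = 0.0369), Mrpl34 (0.70) and Mrpl44 (0.67), and in the small subunit Mrps6 (0.63), Mrps12 (0.60) and Mrps24 (0.59). In these 6 genes the 2 within-genotype comparisons had no call on either side. The interaction term and GC content had a Spearman correlation of 0.583 across the 78 genes and 0.762 across all genes.

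The calls changed with the libraries and the scaling. With GC and length correction 0 members were called, and 0 were called when both libraries numbered 2 were left out. Leaving out 1 library at a time gave 0 calls without HT-Flx replicate 1, WT-Flx replicates 2 and 3, HT-Veh replicates 4 and 5 or WT-Veh replicates 2, 3 and 4. In each of these fits 0% of all genes were called. It gave 5 calls without HT-Flx replicate 3 (Mrpl34, Mrpl38, Mrpl44, Mrps6 and Mrps26; 12.9% of all genes), 8 without HT-Flx replicate 2 (17.6%) and 6 without WT-Flx replicate 1 (16.4%). There were 10 without WT-Flx replicate 4 (20.7%), 11 without WT-Flx replicate 5 (17.3%) and 25 without HT-Veh replicate 1 (43%). Without both HT-Veh replicates 1 and 3 there were 35 (31 positive, 4 negative; 52% of all genes) with a median of 0.35. With equal summed values there were 11 (6 positive, 5 negative; 8.42% and 18.1% of all genes) with a median of 0.00, and Mrps12 and Mrps24 were no longer called. In each of these fits that called any member, the members were called less often than all genes, as a count that was not tested.

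Other genes of mitochondrial translation were read in lists fixed by function. In HT-Flx against WT-Flx, 12 of 24 genes of ribosome assembly and rRNA modification were higher and 6 lower, 2 of 15 translation factors were higher and 5 lower, and 8 of 17 aminoacyl-tRNA synthetases were higher and 6 lower. Mitochondrial transcription had 1 of 7 higher and 4 lower, and 5 mitochondrial ribosomal proteins with other symbols had 4 higher and 1 lower. Among all genes 33.1% were higher and 30.5% lower in this comparison, and the 5 of 15 translation factors that were lower are near that share. The lists were not tested against each other. Nuclear subunits of oxidative phosphorylation were higher in 56 of 81 and lower in 5, with a median of 0.41, and cytosolic ribosomal proteins were higher in 55 of 77 and lower in 3, with a median of 0.50.

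From P10 to P120 in WT mice, 39 of 81 oxidative phosphorylation subunits rose and 11 fell, with a median of 0.22, beside 28.9% of all genes higher and 29.4% lower, and 33 of 77 cytosolic ribosomal proteins rose and 20 fell, with a median of 0.15. The mitochondrial ribosomal proteins had a median of −0.01 in that comparison, and the lists were not tested against each other. Of the 24 assembly and rRNA modification genes 10 rose and 3 fell, among them the methyltransferases Nsun4 (0.51) and Mrm2 (0.54). Of the 15 translation factors 0 rose and 4 fell, including Guf1 (−1.02) and the initiation factor Mtif2 (−0.53), which is near the 29.4% of all genes that were lower. Among the 5 ribosomal proteins with other symbols, Aurkaip1 (0.56) and Gadd45gip1 (0.48) rose most. In HT mice the oxidative phosphorylation subunits rose in 45 of 80 and fell in 2, with a median of 0.48, and the 15 translation factors held 1 rising (Slirp, 0.80) and 4 falling, beside 25.8% of all genes higher and 25.3% lower.

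Exons of 28 of the 78 genes overlap those of another gene of the table, 24 on the opposite and 6 on the same strand. Among the genes named with values, this holds for Mrpl3, Mrpl9, Mrpl14, Mrpl44, Mrpl47, Mrpl48, Mrpl58, Mrps6, Mrps7, Mrps11, Mrps18b, Mrps18c, Mrps24, Mrps27, Mrps30 and Mrps34, so their values are uncertain to the extent of the shared bases.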

How the data were processed

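Poly-A RNA of 30 mouse brains was sequenced in 6 groups of 5. Per the submitters' processing notes, reads were quantified with Salmon 1.1.0 against GRCm38, and the study's methods name GC bias correction, tximport and DESeq2 1.30.1. The deposited values are a signal per gene, read counts that the authors divided by size factors. They are not whole numbers, so reads and depth could not be recovered and no count model was used. No column was left unused. Groups follow the labels.

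Genes with a mean of at least 10 over the libraries compared were tested with limma 3.58.1 (R 4.3.3) on log2(value + 1) with an intensity trend, and p-values were adjusted over all genes by Benjamini-Hochberg at 0.05. The fit was tested on simulated data. Single members also got exact two-sided permutation tests. A fold change on this scale understates low genes. The 4 vehicle libraries per genotype were those whose replicate number is not 2.

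Members named were, per comparison and subunit, up to 3 called genes per direction with groups apart, or else the 2 smallest p-values, plus genes of known role, the highest and lowest per kilobase, and Arid1b. Mrpl33 in the age comparison, Mrpl4 and lists behind small counts were named after their values were seen. Members and lists were chosen with earlier results of these data known. Transcript lengths, GC content and exon overlaps come from the GENCODE mouse annotation, and promoters from RefSeq.

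Alternatives were other pseudocounts and filters, no trend, rescaling, a GC and length correction over 100 bins, a replicate block, subunits by structure and leaving out each library. Equal summed values, and leaving out HT-Veh replicates 1 and 3 together, were chosen after seeing the data.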

Additional observations from a re-analysis of the deposited data

Results flagged for a closer look

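In 20 of 282 groups of 5 libraries tested for a lone value, 1 library stood far from the other 4, and chance alone gives about 1 in 20 such groups. HT-Veh replicate 3 was high in Mrpl32 (860.8), Mrpl33 (974.8) and Mrps14 (1445), and HT-Veh replicate 1 was apart in Mrps27 (1123). HT-Flx replicate 1 was apart in Mrpl10 (1577) and Mrps17 (1492). WT-Flx replicate 2 was apart in Mrpl17 (631.5) and Mrpl32 (386.5), and WT-Flx replicate 4 in Mrpl48 (1851). In WT-Veh, replicate 4 was apart in Mrpl32 (564.6) and replicate 2 in Mrps16 (347.7). At P10, HT replicate 1 was apart in Mrpl9 (952.8), Mrpl14 (195.6) and Mrps12 (504.1), WT replicate 4 in Mrps12 (729.3) and Mrps17 (1485), and WT replicate 5 in Mrpl48 (1210). The mean log2 value of the members was 9.526 in P10 WT replicate 2. Arid1b was apart in P10 WT replicate 5 (3164) and in the library labelled WT-Veh 2 (2320).

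The fluoxetine difference itself differed between HT and WT mice, by the interaction term in limma, for 17 of 78 members (21.8%), where 27.3% of all genes were called. It was lower in HT mice for Mrpl50 (−0.97) and Mrps9 (−0.36). It was higher for Mrpl12 (0.75), Mrpl34 (0.70), Mrpl44 (0.67), Mrpl28 (0.66), Mrpl14 (0.65), Mrps6 (0.63), Mrpl37 (0.61), Mrpl4 (0.60), Mrps12 (0.60), Mrps24 (0.59), Mrpl54 (0.58), Mrps18a (0.53), Mrps34 (0.50), Mrps26 (0.44) and Mrpl38 (0.43). None of the 17 was called after the GC and length correction, or when both vehicle libraries numbered 2 were left out. Several fits that left out 1 library also called 0 members.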

How the results depend on the processing

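Most counts of called members moved by less than 1.5 times, and most medians by less than the spread between replicates. Leaving out HT-Veh replicates 1 and 3 gave medians of −0.042 for HT-Veh against WT-Veh, 0.35 for genotype by fluoxetine and 0.054 for genotype by age, 27 calls for HT-Flx against HT-Veh and 35 for genotype by fluoxetine. Equal summed values gave medians of 0.052 for HT-Flx against WT-Flx, 0.0027 for genotype by fluoxetine, −0.12 and −0.010 for the age comparisons in WT and HT mice, and 11 genotype by fluoxetine calls. The GC and length correction left 0 genotype by fluoxetine calls, with and without a replicate block, as did leaving out both vehicle libraries numbered 2. It also turned Mrpl1 to 0.37 and Mrps7 to −0.12 in HT-Flx against WT-Flx and Mrps18a to −0.053 in the HT age comparison, with and without the block. The cause of these changes was not tested.

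Whether replicate numbers pair the libraries could not be settled from the correlations of same-numbered deviations. The lowest such correlation was between −0.303 and 0.0173 in the comparisons. In HT-Flx against HT-Veh the same-numbered correlations averaged 0.179 (highest 0.407), against −0.0441 for other pairs. In the other comparisons they averaged −0.0494 to 0.0449, with a highest of 0.352 in WT-Flx against WT-Veh. A replicate block gave 1 call in HT-Flx against HT-Veh (Mrpl34, limma adjusted p = 0.0495) and 20 for genotype by fluoxetine, and lost Mrps18a (adjusted p = 0.064) and Mrps30 (0.056) in the HT age comparison. Without the block 0% of all genes were called in HT-Flx against HT-Veh and 27.3% for genotype by fluoxetine. The shares of all genes called with the block are not given here, so its counts cannot be set against them.

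Leaving out 1 library at a time gave 0 calls in P10 HT against WT with medians of −0.10 to −0.07, 0 in HT-Veh against WT-Veh (0.03 to 0.19), 0 in HT-Flx against HT-Veh (0.05 to 0.21), 0 to 2 in WT-Flx against WT-Veh (−0.07 to −0.02), 43 to 52 in HT-Flx against WT-Flx (0.26 to 0.34), 0 to 25 for genotype by fluoxetine (0.11 to 0.26), 28 to 38 and 16 to 27 for age in WT (−0.06 to 0.01) and HT mice (0.11 to 0.18), and 0 for genotype by age (0.11 to 0.24). In the full fit of HT-Flx against WT-Flx, 62.8% of members were called against 63.7% of all genes. For genotype by fluoxetine the shares were 21.8% and 27.3%. For age they were 44.9% and 58.3% in WT mice and 30.8% and 51.1% in HT mice. The depth behind each value is unknown, so counting error could not be given.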
